A study of Mus musculus with 13 samples.

Results

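The genes described here are 29 homeobox transcription factor genes of 6 groups: sine oculis (Six2, Six3, Six4, Six5, Six6), Iroquois (Irx1, Irx2, Irx3, Irx4, Irx5, Irx6), POU (Pou1f1, Pou2f2, Pou2f3, Pou3f1, Pou3f2, Pou3f3, Pou4f1, Pou4f2, Pou4f3), Meis and Pknox (Meis1, Meis2, Pknox2), Onecut (Onecut1, Onecut2, Onecut3) and a group of more distant homeobox genes (Satb1, Cux2, Prox1). They were chosen by symbol, with earlier results of these data known. Their 63 promoter rows, of 77489 rows for 55232 genes, were taken from a table of read counts over promoters. To these were added the 38 marked regions that overlap a promoter row of a member, of 57909 regions in the series. Regions were found for 28 of the 29 genes. Pou1f1 had none.

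Chromatin immunoprecipitation with sequencing (ChIP-seq) was done in male mouse embryonic stem cells (ESCs) of a CAST and B6 cross that carry a cassette for transgene exchange at Rosa26. All cells, wild type (WT) and double knockout (DKO) of Safb and Safb2 alike, had received 3 days of doxycycline and were crosslinked with 0.6% formaldehyde. SAFB and SAFB2 are related nuclear proteins that bind RNA. H3K27me3 was measured in 5 WT and 4 DKO libraries and total histone H3 in 2 WT and 2 DKO libraries, 13 in all. Clone 4 gave DKO replicate 1 for H3K27me3 and clone 13 every other DKO library, so the DKO group stands for 2 clones. The labels of WT replicate 4 and DKO replicate 3 carry the word Old, and those of WT replicate 5 and DKO replicate 4 the word New. The other 5 H3K27me3 libraries carry neither. The sources do not explain these words, and the libraries with and without them were also compared as separate sets. WT replicates 1, 4 and 5 share a stem in their library names. Regions held 1818647 to 3134799 counts per H3K27me3 library and 525847 to 736566 per H3 library. Promoter rows held 798466 to 1427771 counts per H3K27me3 library. The library names behind all of these counts carry the tag b6. The sources do not state if a count holds reads of the CAST and B6 alleles together or of B6 alone, so a level may stand for 1 allele.

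H3K27me3 is the histone mark of Polycomb repressive complex 2. In ESCs it lies over CpG-rich promoters of genes that are silent until a lineage is chosen, and transcription factor genes of the homeobox class are among its best known targets. A homeodomain is a DNA-binding fold. In sine oculis proteins it is joined to a domain that binds EYA cofactors, in POU proteins to a POU-specific domain, and in Onecut, Cux and Satb proteins to CUT domains. Meis and Pknox proteins belong to the TALE class and bind DNA together with Pbx and Hox proteins.

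Promoter sequences were available for 20 of the 29 genes in RefSeq's table for GRCm38.p6, as 300 bases from 250 before to 50 after a start site. They held a median of 18 CpG dinucleotides, against 7 over all 32851 promoters of the table. CpG-rich promoters, with a GC content of 50% or more and an observed to expected CpG ratio of 0.6 or more, made up 14 of the 20 (70.0%) and 33.5% of the table. The word TATAAA, searched on both strands, was present in 3 of the 20 (Meis2, Prox1 and Pou1f1) and in 13.6% of the table. For each group the member whose region fell with the smallest p and that had a sequence is printed below, to show the CpG content under the domains that fell. Pou1f1 is the only member without a region and was added after its values were seen. Capitals mark each CpG. The windows are chr17:85620584-85620883 on the plus strand for Six3, chr8:91801605-91801904 on the minus strand for Irx3, chr4:22488317-22488616 on the minus strand for Pou3f2, chr2:116064570-116064869 on the minus strand for Meis2, chr9:74861671-74861970 on the plus strand for Onecut1, chr1:190170778-190171077 on the minus strand for Prox1 and chr16:65520262-65520561 on the plus strand for Pou1f1.
Six3: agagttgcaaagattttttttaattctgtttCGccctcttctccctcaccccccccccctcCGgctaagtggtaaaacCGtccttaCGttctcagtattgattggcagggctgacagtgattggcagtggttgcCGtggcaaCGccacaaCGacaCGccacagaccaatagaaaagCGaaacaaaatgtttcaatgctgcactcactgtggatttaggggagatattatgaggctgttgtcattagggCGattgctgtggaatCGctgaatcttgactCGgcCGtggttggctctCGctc
Irx3: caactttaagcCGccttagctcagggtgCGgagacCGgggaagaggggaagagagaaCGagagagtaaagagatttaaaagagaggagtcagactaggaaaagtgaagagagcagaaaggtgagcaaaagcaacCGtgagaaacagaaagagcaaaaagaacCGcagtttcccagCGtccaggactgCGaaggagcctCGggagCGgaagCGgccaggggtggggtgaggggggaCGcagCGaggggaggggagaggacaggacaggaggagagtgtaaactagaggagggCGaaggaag
Pou3f2: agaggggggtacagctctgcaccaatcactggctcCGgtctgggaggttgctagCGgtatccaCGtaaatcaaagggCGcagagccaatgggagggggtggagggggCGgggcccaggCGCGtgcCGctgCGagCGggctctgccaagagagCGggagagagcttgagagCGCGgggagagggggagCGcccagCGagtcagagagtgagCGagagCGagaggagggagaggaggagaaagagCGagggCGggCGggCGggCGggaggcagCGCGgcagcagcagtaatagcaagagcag
Meis2: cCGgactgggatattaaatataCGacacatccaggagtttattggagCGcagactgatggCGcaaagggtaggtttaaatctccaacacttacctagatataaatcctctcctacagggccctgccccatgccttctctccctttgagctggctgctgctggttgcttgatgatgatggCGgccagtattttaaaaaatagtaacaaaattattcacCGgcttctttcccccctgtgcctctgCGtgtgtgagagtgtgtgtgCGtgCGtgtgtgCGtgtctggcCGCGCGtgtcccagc
Onecut1: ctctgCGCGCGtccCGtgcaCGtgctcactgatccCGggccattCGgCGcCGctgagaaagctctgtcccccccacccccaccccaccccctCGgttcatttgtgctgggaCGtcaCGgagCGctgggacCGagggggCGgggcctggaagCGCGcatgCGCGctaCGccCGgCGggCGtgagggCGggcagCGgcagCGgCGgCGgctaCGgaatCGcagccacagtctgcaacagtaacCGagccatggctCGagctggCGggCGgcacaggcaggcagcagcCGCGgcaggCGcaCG
Prox1: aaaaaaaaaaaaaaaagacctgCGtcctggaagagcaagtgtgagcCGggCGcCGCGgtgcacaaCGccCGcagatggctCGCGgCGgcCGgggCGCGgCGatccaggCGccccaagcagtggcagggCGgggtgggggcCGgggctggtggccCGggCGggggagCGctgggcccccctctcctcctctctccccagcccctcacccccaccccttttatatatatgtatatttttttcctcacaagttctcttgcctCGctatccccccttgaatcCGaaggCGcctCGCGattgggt
Pou1f1: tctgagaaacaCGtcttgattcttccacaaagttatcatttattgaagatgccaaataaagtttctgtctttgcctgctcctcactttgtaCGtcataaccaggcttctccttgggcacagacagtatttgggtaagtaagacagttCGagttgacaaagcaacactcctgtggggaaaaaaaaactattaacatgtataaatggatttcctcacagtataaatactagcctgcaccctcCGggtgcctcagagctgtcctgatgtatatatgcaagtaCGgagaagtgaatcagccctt

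The Onecut1 window held 38 CpG, Prox1 25, Pou3f2 24, Six3 and Irx3 14 each and Meis2 13, while Pou1f1 held 5. All except that of Pou1f1 counted as CpG-rich. Levels are in CPM, counts relative to the library's total over the rows or regions kept for that comparison, scaled between libraries by TMM. Pou1f1 encodes the pituitary factor PIT1. Its best covered promoter row stood at 12.1 ± 3.36 CPM (SD, n = 5) in WT and 9.92 ± 2.75 (SD, n = 4) in DKO. Its log2 fold change of -0.24 did not pass (edgeR adjusted p = 0.863). The 10 windows whose start site lay inside a fallen region held a median of 21 CpG and the 10 others 16, and this difference was not tested. The window of Cux2, with 48 CpG, is among the others, since its start site lies outside the Cux2 region that fell.

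In WT cells most of these genes lay under wide, strongly marked H3K27me3 domains. The widest region at each gene had a median width of 15196 bp (308 to 36140 bp over 28 genes), and 21 of the 38 regions spanned 10 kb or more, as did 1.90% of the 28174 regions shared by both genotypes. The authors' lists placed 33 of the 38 regions in the shared class, 1 as WT-specific and 4 as DKO-specific. Irx5 carried the highest level per length at 56.7 CPM per kb in WT, above 99.9% of shared regions, followed by Onecut3 at 48.78 and Irx3 at 48.75 CPM per kb. The lowest WT levels at shared regions were those of a Cux2 region at 8.77 CPM per kb and a Pknox2 region at 9.73, near the median of all shared regions (9.53). Together the 38 regions covered 0.583% of the bases in regions and took 1.30% of their H3K27me3 counts in WT and 1.15% in DKO.

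**Figure D1:**
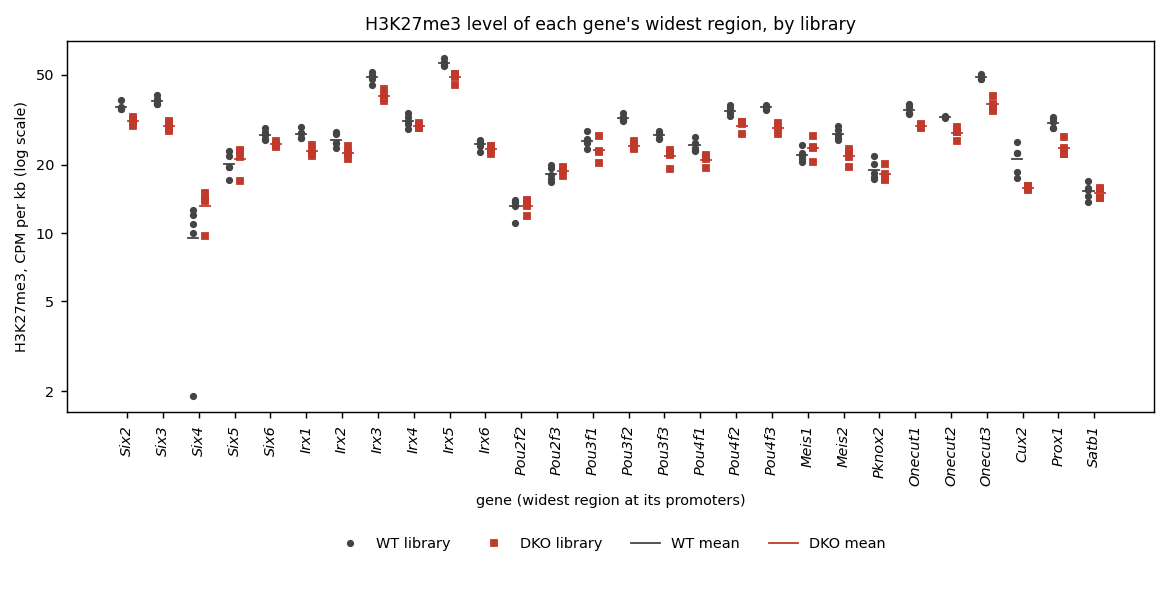
H3K27me3 in CPM per kb (log axis) at the widest region of each of 28 genes. Each dot is 1 of 5 WT libraries, each square 1 of 4 DKO libraries, and short lines are group means. Irx5, Irx3 and Onecut3 stand highest in both groups, and the low WT value at Six4 comes from a region of 308 bp with few reads.

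The main comparison asked whether H3K27me3 over these regions differs between DKO and WT cells. Of the 36 regions with enough reads to test, 16 fell in DKO (edgeR quasi-likelihood test, adjusted p under 0.05 over all regions), each at a different gene, and 0 rose. Over all 40418 regions tested, 1.88% fell (758) and 2.16% rose (872). These counts in the series moved more than those of the members when 1 library was left out. Without WT replicate 1 there were 1468 falls and 1414 rises. Falls were 303 without DKO replicate 3, 357 without DKO replicate 2 and 446 without WT replicate 5, and rises then 320, 373 and 402. Rises were also 514 without WT replicate 4 and 552 without WT replicate 2. The median log2 fold change was -0.18 over the 36 regions and -0.02 over all regions. Values of the 16 lay between -0.43 and -0.21, which is 25.8% to 13.5% lower. They are relative to the scaling between libraries, so a change shared by all regions would not be seen. With library totals in place of TMM 12 regions fell and the median over the 36 was -0.12. At each of the 16, all 4 DKO libraries lay below all 5 WT libraries. Such a separation held at 17 of the 36, the other being Six6, and at 3.40% of all regions tested. By group, 2 of 5 sine oculis regions, 3 of 6 Irx, 5 of 12 Pou, 1 of 4 Meis and Pknox, 3 of 3 Onecut and 2 of 6 Satb, Cux and Prox regions fell. The differences between groups were not tested. These are bulk libraries, in which fewer marked cells and less of the mark per cell cannot be told apart.

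**Figure D2:**
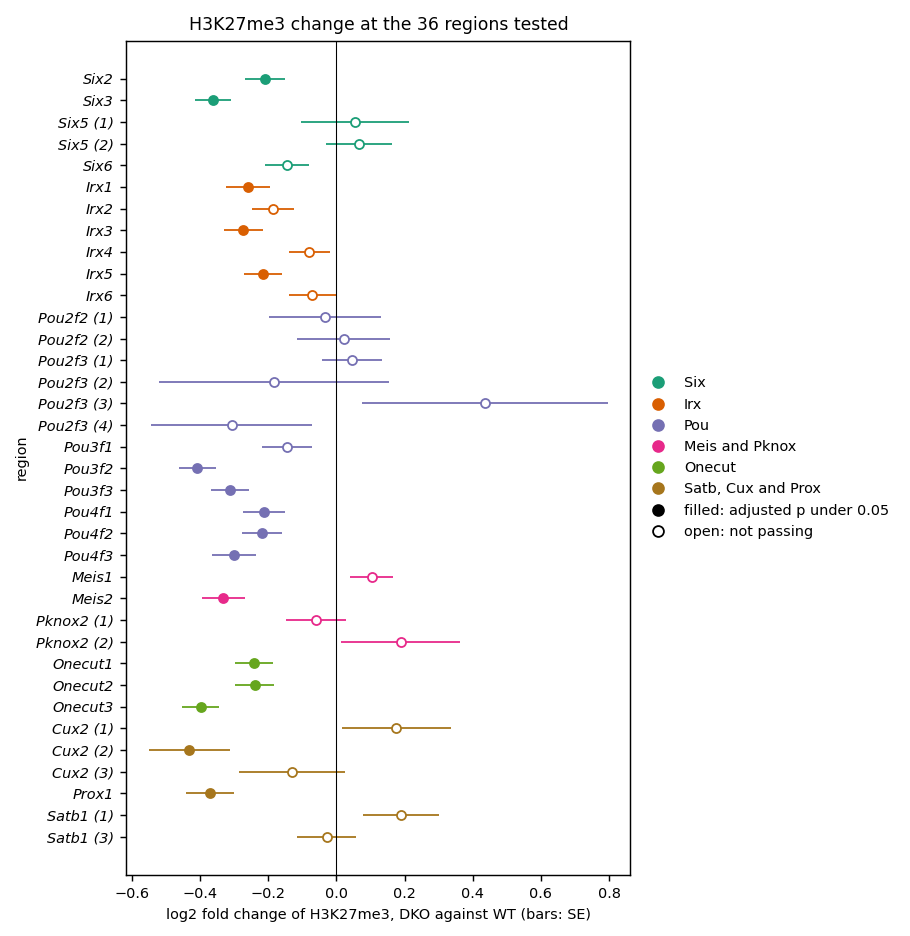
Log2 fold change of H3K27me3 in DKO against WT (horizontal axis, bars are SE) at the 36 member regions tested, coloured by gene group. Numbers in brackets count a gene's regions by position. The 16 filled points passed an adjusted p of 0.05, and all of them lie between -0.43 and -0.21. They stayed below 0 under every scaling tried, but were chosen for their fall over the same libraries. With an offset for level, described below, 4 of the 16 still passed.

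A setting that bears on all of these values is an offset for level, which removes in each library any trend of the counts with the mean level of a region. With it 4 of the 16 falls held (Cux2 at -0.41, Prox1 at -0.24, Pou3f2 at -0.19 and Onecut3 at -0.18), and Meis1 rose. The list's median was then -0.03, and all 16 values were still negative, from -0.41 at Cux2 to -0.01 at Irx5. These 16 were chosen for their fall over the same libraries. In the series a clearly lower median was seen only from 10 kb up. Over the 27473 shared regions tested Spearman's rho of the change with width was 0.0647, near 0, and the median change was -0.08 under 1 kb, -0.03 from 1 to 5 kb, -0.07 from 5 to 10 kb, -0.16 from 10 to 20 kb and -0.25 at 20 kb or more. Of 534 shared regions of 10 kb or more, 40.8% fell, and all DKO libraries lay below all WT libraries at 45.9%. Of the 21 member regions of that width 15 fell, with a median of -0.24 against -0.18 for all 534. From 10 to 20 kb the counts were 8 of 12 members and 33.2% of 422 regions, and at 20 kb or more 7 of 9 members and 69.6% of 112. The look at widths was added after the values were seen, and whether the members differ from other regions of their width was not tested. Across the 36 regions the log2 fold change was lower at wider regions (Pearson's r -0.552 with the log10 width, Spearman's rho -0.543) and at higher WT levels per kb (r -0.648, rho -0.657). These describe regions that share the same 9 libraries, and wide regions also hold more reads and so smaller errors. The WT level is also part of the fold change, so noise in it pushes the correlation with level below 0.

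**Figure D3:**
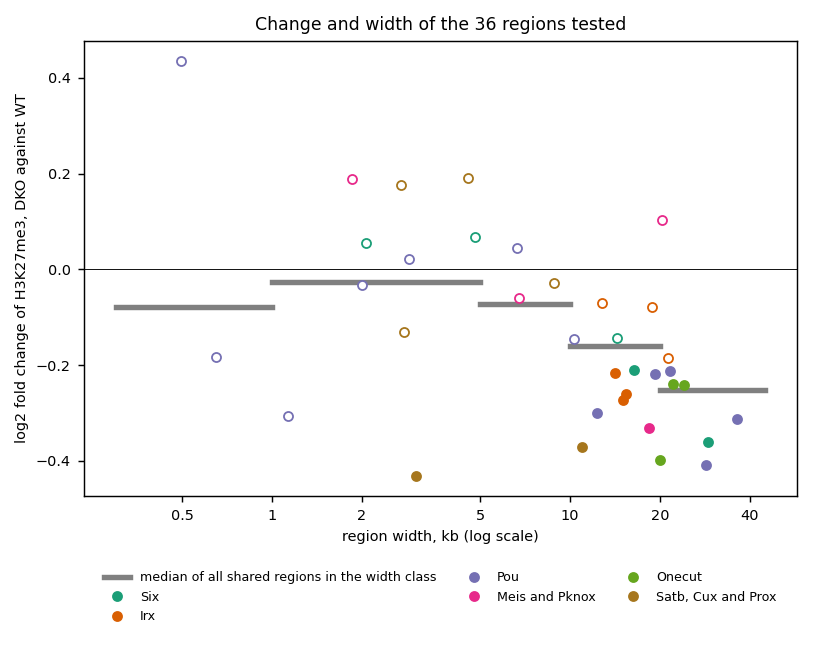
Log2 fold change of H3K27me3 (vertical axis) against region width in kb (log axis) for the 36 member regions tested, filled where they fell. Grey bars are the medians of all shared regions in 5 width classes and stand at -0.08, -0.03, -0.07, -0.16 and -0.25 from the narrowest class to the widest. All but 1 of the filled points lie at 10 kb or more, the exception being a Cux2 region of 3052 bp.

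Among the sine oculis genes Six2 to Six6, which act in eye, kidney, muscle and sensory organ formation, the neighbours Six2 and Six3 fell. Six3 is needed for forebrain and eye formation. Its region (chr17:85604498-85633427, 28930 bp, which also holds Six3os1) had 1129, 1177, 1074, 1083 and 1070 CPM in WT replicates 1 to 5 and 909, 816, 834 and 886 CPM in DKO replicates 1 to 4. The fold change was -0.36 ± 0.05 (SE; edgeR adjusted p = 6.70e-08), and it passed both in the set without the words Old or New (-0.39) and in the set with them (-0.32). Six2, which keeps nephron progenitors undifferentiated, lies close by on the same chromosome. Its region (chr17:85678269-85694612, 16344 bp) had 631, 584, 586, 575 and 579 CPM in WT and 531, 506, 487 and 521 CPM in DKO. Here the change was -0.21 ± 0.06 (SE; edgeR adjusted p = 0.0233). It stood at -0.22 and -0.19 within the sets, passing in neither, and the call ended without DKO replicate 2 (-0.20) or DKO replicate 3 (-0.18). Six6, a factor of the eye and pituitary, had a region of 14361 bp that went from 391 ± 19.6 CPM (SD, n = 5) to 354 ± 9.0 (SD, n = 4), at -0.14 (edgeR adjusted p = 0.193). The narrow regions at Six5, a gene next to Dmpk, stood at 0.05 and 0.07 with neither passing, and the region of 308 bp at Six4 held too few reads.

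The Irx genes lie in 2 clusters of 3 genes, Irx1, Irx2 and Irx4 on chromosome 13 and Irx3, Irx5 and Irx6 on chromosome 8, and act in the patterning of the neural plate, heart and limb. Irx3 (chr8:91795351-91810348, 14998 bp) had 720.5, 752, 732, 775 and 676 CPM in WT and 649, 603, 591 and 577 CPM in DKO. The fold change was -0.27 ± 0.06 (SE; edgeR adjusted p = 6.83e-04), at -0.24 in the libraries without Old or New (not passing) and -0.30 in those with them. Irx5 (chr8:92356403-92370520, 14118 bp), which is coexpressed with Irx3 in many tissues, had 841, 793, 784, 807 and 774 CPM in WT and 713, 715, 637 and 691 CPM in DKO. Its groups did not overlap, with DKO replicates 1 and 2 nearest to the WT range. It fell by 0.22 ± 0.06 (SE) on the log2 scale (edgeR adjusted p = 0.0107), with -0.18 and -0.24 in the sets, neither passing. Irx6, the last gene of that cluster, stood at -0.07 (edgeR adjusted p = 0.591), with 315.5 ± 15.5 CPM (SD, n = 5) in WT and 300.3 ± 10.7 (SD, n = 4) in DKO.

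On chromosome 13 the order was alike. Irx1 (chr13:71954727-71970121, 15395 bp) had 455, 427, 424, 404 and 405 CPM in WT and 379, 351, 336 and 347 CPM in DKO, a change of -0.26 ± 0.06 (SE; edgeR adjusted p = 0.00691). Within the sets it was -0.26 and -0.24, neither passing. Without DKO replicate 3 the calls of Irx1 (-0.23) and Irx5 (-0.17) ended. Irx2, whose region is the widest of the Irx genes (chr13:72621153-72642358, 21206 bp), had 594, 529, 580, 502 and 530 CPM in WT and 516, 484, 450 and 473 CPM in DKO. DKO replicate 1 lay inside the WT range, and the change of -0.19 ± 0.06 (SE) did not pass (edgeR adjusted p = 0.0580). It passed without DKO replicate 1 (-0.22) or WT replicate 4 (-0.22). Irx4 stood at -0.08 (edgeR adjusted p = 0.471), with 589 ± 38.2 CPM (SD, n = 5) and 557 ± 14.1 (SD, n = 4). Irx1 is the paralog of Irx3, Irx2 of Irx5 and Irx4 of Irx6, and the paralogs' values of -0.26 and -0.27, -0.19 and -0.22, and -0.08 and -0.07 lay close to each other. The SE of these values was 0.06 to 0.07, and genes that are not paralogs, such as Irx1 and Irx5, also had close values. Neither the likeness of paralogs nor differences between the genes of a cluster were tested.

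POU factors of classes III and IV are neural. Pou3f2 (BRN2) and Pou3f3 (BRN1) act in cortical neurogenesis. Pou4f1, Pou4f2 and Pou4f3 act in sensory neurons, retinal ganglion cells and hair cells. These 5 fell, while Pou3f1 of class III did not pass. The regions of Pou4f2 and Pou4f3 span 10 to 20 kb, a width at which 33.2% of the 422 shared regions of the series fell. Those of Pou3f2, Pou3f3 and Pou4f1 span more than 20 kb, where 69.6% of 112 fell. Pou3f2 (chr4:22474324-22502964, 28641 bp) had the smallest p of all members, with 929, 968, 898, 918 and 909 CPM in WT and 728, 675, 678 and 705.5 CPM in DKO. Its fold change was -0.41 ± 0.06 (SE; edgeR adjusted p = 3.23e-09), and it passed within both sets (-0.41 and -0.39). Pou3f3, under the widest member region (chr1:42681703-42717842, 36140 bp, together with the noncoding genes Pantr1 and Pantr2), had 990, 1022, 1000, 940 and 952 CPM in WT and 845, 800, 697 and 818 CPM in DKO. The change of -0.31 ± 0.05 (SE; edgeR adjusted p = 1.23e-05) passed within both sets (-0.29 and -0.31). Pou3f1 (OCT6), also of class III, did not pass at -0.15 (edgeR adjusted p = 0.249). Its WT mean was 263 ± 17.1 CPM (SD, n = 5) and its DKO mean 238 ± 27.8 (SD, n = 4), with DKO replicate 2 inside the WT range.

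In class IV, Pou4f3 (chromosome 18, 42392071 to 42404371, 12301 bp) had 454, 429, 444, 437 and 449 CPM in WT and 360.5, 363, 338 and 378 CPM in DKO. The gap between the groups was wider than the spread within either, and the change was -0.30 ± 0.06 (SE; edgeR adjusted p = 8.14e-04). It held at -0.30 in each set, passing in neither. Pou4f2 (chr8:78424209-78443470, 19262 bp) had 661, 687, 653, 709.5 and 634 CPM in WT and 593, 529, 583 and 594 CPM in DKO. The change was -0.22 ± 0.06 (SE; edgeR adjusted p = 0.0136). Pou4f1 (chr14:104454190-104475809, 21620 bp) had 514, 576, 540.5, 506 and 499.8 CPM in WT and 466, 457, 417 and 478 CPM in DKO, at -0.21 ± 0.06 (SE; edgeR adjusted p = 0.0273). These 2 calls were the least stable of the group. That of Pou4f2 ended without DKO replicate 2 (-0.17) or WT replicate 4 (-0.20), and that of Pou4f1 without WT replicate 2 (-0.18), WT replicate 3 (-0.20), DKO replicate 2 (-0.21) or DKO replicate 3 (-0.17). Within the sets Pou4f2 stood at -0.25 and -0.18 and Pou4f1 at -0.24 and -0.16, none passing. Class II members, Pou2f2 of lymphocytes and Pou2f3 of tuft cells, had 6 regions of 496 to 6653 bp, with changes from -0.31 to 0.43 and none passing.

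Of the Meis and Pknox genes, Meis2 and Meis1 stood apart. Both encode Hox and Pbx partners. Meis2 (chr2:116060278-116078641, 18364 bp) had 546, 473, 496, 525.5 and 484 CPM in WT and 432.5, 360, 398 and 414.5 CPM in DKO. It fell by 0.33 ± 0.06 (SE) on the log2 scale (edgeR adjusted p = 9.07e-05), at -0.36 in the libraries without Old or New and -0.31 in those with them (not passing). Meis1, under a region of like width and level (chr11:19004214-19024471, 20258 bp), had 457, 445, 494, 419 and 430 CPM in WT and 416, 481, 487 and 542 CPM in DKO. The groups overlapped, and the change of 0.10 ± 0.06 (SE) did not pass (edgeR adjusted p = 0.357). It was -0.06 in the libraries without Old or New and 0.28 in those with them, so its sign depended on the set, and it passed at 0.28 with the offset for level. Meis1 is the only member on chromosome 11. Shared regions of that chromosome had a median log2 fold change of 0.29 for H3K27me3 (1418 regions) and 0.32 for total H3 (1196 regions). On all other chromosomes the medians were -0.06 and -0.03. At 10 kb or more, the width class of Meis1, the H3K27me3 median was 0.18 over 40 regions of chromosome 11, of which 11 rose and 2 fell, and -0.19 over 494 regions elsewhere. At Meis1 total H3 stood at 294 and 332 CPM in WT and 410 and 363 CPM in DKO, a change of 0.29 ± 0.12 (SE; edgeR adjusted p = 0.715). The part of the chromosome in the Meis1 value was not tested. The 2 regions at Pknox2 stood at -0.06 and 0.19, neither passing.

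The regions of the 3 Onecut genes, which act in liver, pancreas and retina, all fell. Each spans more than 20 kb, a width at which 69.6% of the 112 shared regions of the series fell. Onecut3 (chr10:80488475-80508515, 20041 bp) had 979, 1006, 962, 986 and 956 CPM in WT and 810, 718, 692 and 748 CPM in DKO. The change was -0.40 ± 0.05 (SE; edgeR adjusted p = 5.54e-09), and it passed within both sets (-0.37 and -0.42). Onecut1 (HNF6; chr9:74844129-74868160, 24032 bp) had 869, 896, 817, 809 and 818 CPM in WT and 726, 718, 697 and 703 CPM in DKO. Its 4 DKO values lay close to each other and all below the WT range. The change was -0.24 ± 0.06 (SE; edgeR adjusted p = 0.00245), with -0.26 and -0.21 in the sets, neither passing. Onecut2 (chromosome 18, 64329120 to 64351304, 22185 bp) had 725, 723, 730, 717 and 719 CPM in WT and 651, 618, 565 and 617 CPM in DKO. Its change was -0.24 ± 0.06 (SE; edgeR adjusted p = 0.00448), at -0.20 and -0.27 in the sets, neither passing, and the call ended without DKO replicate 3 (-0.20).

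Prox1, needed for lymphatic endothelium and liver, fell with a region of 10960 bp (chr1:190166589-190177548). It had 351, 356, 318, 340 and 319 CPM in WT and 290, 246, 244 and 262 CPM in DKO. The change was -0.37 ± 0.07 (SE; edgeR adjusted p = 6.59e-05), at -0.36 in the libraries without Old or New (not passing) and -0.37 in those with them. Cux2, a gene of upper-layer cortical neurons, was the one member with a fall in a narrow region. The region (chr5:122046489-122049540, 3052 bp) had 77.3, 69.0, 53.7, 56.5 and 68.7 CPM in WT and 49.2, 47.2, 49.0 and 47.6 CPM in DKO. Its DKO values were close together below a wide WT range. The change of -0.43 ± 0.12 (SE; edgeR adjusted p = 0.0159) lost its call without DKO replicate 2 (-0.41), DKO replicate 3 (-0.43) or WT replicate 5 (-0.41) and passed in neither set (-0.48 and -0.37). The other regions at Cux2 stood at 0.18 and -0.13. Satb1, a chromatin organiser of T cells, had 3 regions. Those tested stood at 0.19 and -0.03, neither passing.

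**Figure D4:**
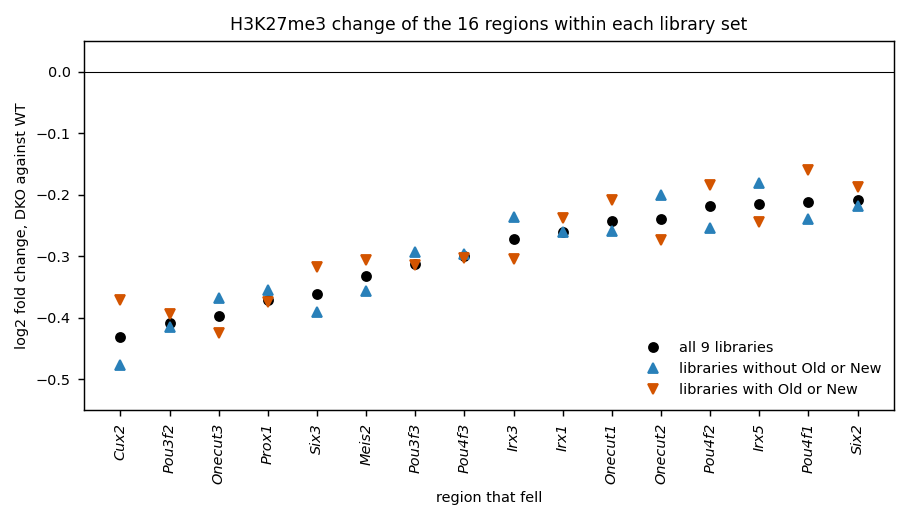
Log2 fold change of H3K27me3 in DKO against WT at the 16 regions that fell, ordered by the value over all 9 libraries (dots). Triangles pointing up give the value in the set without the words Old or New, triangles pointing down that in the set with them. Every value within the sets is below 0, with medians of -0.28 and -0.30, at regions that were chosen for their fall over the same libraries.

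The 16 regions were chosen for their fall over the same 9 libraries, so the sign within each library set is not independent support. Both sets gave negative values at all 16. Over the member regions tested, 5 passed in the libraries without Old or New and 6 in those with them, where fewer libraries entered. Within the DKO group the libraries were not alike. DKO replicate 1, the only library of clone 4, was the highest of the 4 at 12 of the 16 regions, and DKO replicate 3 the lowest at 10. Over the 218 shared regions of 10 kb or more that fell, the same libraries were highest at 66.1% and lowest at 67.0%. With 1 library for clone 4, clone and library cannot be told apart. Without DKO replicate 1 the count was 17 falls, and without DKO replicate 3 it was 10.

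Total H3 was compared over the same regions as the measure of nucleosome background. Of the 34 member regions with enough H3 reads, 0 changed (edgeR, adjusted p under 0.05), against 0.0211% of the 18938 regions tested in the series. At an unadjusted p under 0.05 there were 2, a Six5 region (0.71) and Meis1 (0.29), against 1169 of the 18938 in the series. DESeq2 called 0 member regions. The median H3 change was 0.02 over the 34 and -0.04 over the 16 regions that fell in H3K27me3. Values at these 16 ran from -0.39 at Cux2 to 0.16 at Prox1, with a median SE of 0.13. The Cux2 region had 82.2 and 45.4 CPM of H3 in WT and 34.2 and 58.0 CPM in DKO, at -0.39 ± 0.30 (SE). Six3 had 461 and 484 CPM of H3 in WT and 399 and 432 CPM in DKO, at -0.18 ± 0.11 (SE). Pou3f2 had 480 and 456 CPM in WT and 423 and 410 CPM in DKO, at -0.17 ± 0.11 (SE). Onecut3 had 305 and 357 CPM in WT and 300 and 348 CPM in DKO, at -0.02 ± 0.13 (SE). The H3 values of Onecut3 overlapped between genotypes, while at Six3 and Pou3f2 both DKO values lay below both WT values. With 2 H3 libraries per genotype such an order says little. These regions held 105 to 906 H3 counts over 4 libraries, and a change of the size seen for H3K27me3 was mostly not detectable at this depth.

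The change of H3K27me3 less that of H3 was tested as an interaction in 1 fit over the 13 libraries. The DKO libraries of H3 were all of clone 13, while those of H3K27me3 also included clone 4. None of the 38 member regions passed, against 0.00184% (1 region) of 54290 in the series. An unadjusted p under 0.05 was found at 10 of the 38 and at 3641 of the 54290. Of those 10, 8 were among the 16 regions that fell in H3K27me3. The difference was negative at 28 of the 38. At the 16 regions that fell, whose choice by the H3K27me3 change leaves little room for another sign, it had a median of -0.27 and a range from -0.54 at Prox1 to -0.05 at Cux2. At Onecut3 it was -0.39 ± 0.14 (SE; edgeR adjusted p = 0.581), and at Meis1 -0.21 ± 0.15 (SE; edgeR adjusted p = 0.829). Over all 38 the median was -0.21 and over all regions tested -0.01. The CPM of H3K27me3 and of H3 are relative to totals over different regions, 40418 and 18938, so their ratio is a relative value. As a ratio of CPM, H3K27me3 over H3 at the 33 shared member regions had a median of 1.72 in WT (0.483 to 2.95) and 1.49 in DKO, lower in DKO at 26 of 33. Onecut3 was highest at 2.95 in WT and 2.29 in DKO. At the Cux2 region that fell the ratio was 1.02 in WT and 1.05 in DKO. Shared regions of 10 kb or more went from 1.58 to 1.39, and all shared regions stood at 0.587 and 0.592.

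**Figure D5:**
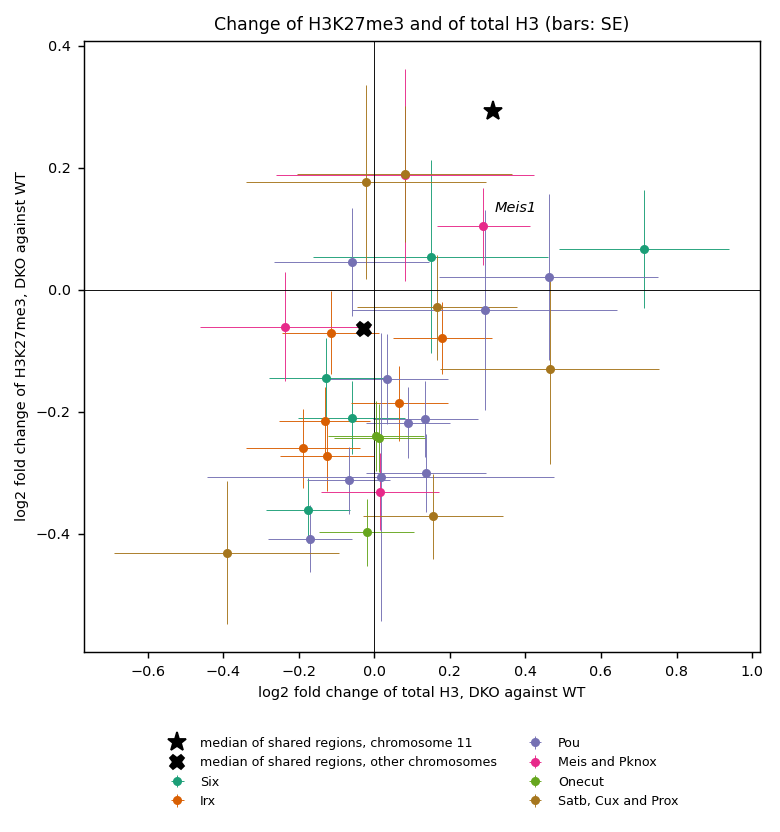
Log2 fold change of H3K27me3 (vertical) against that of total H3 (horizontal), DKO against WT, for the 34 member regions tested in both, with SE bars. The star and the cross are medians of shared regions on chromosome 11 (0.32 for H3 and 0.29 for H3K27me3) and on all other chromosomes (-0.03 and -0.06). Meis1, on chromosome 11, lies at 0.29 and 0.10, and most other points lie below 0 on the vertical axis.

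The promoter rows gave a narrower view. A row spans 3001 bp, and a read that overlaps several rows was not counted. Of the 63 member rows 19 had no base free of another row, and rows of 22 genes, 29 in all, held enough reads to test. Six3 and Pou3f3, with falls over their regions, had 0 counts in every row for that reason. Of the 29 rows 2 fell, and 0 rose, against 0.190% (62) and 0.438% (143) of 32647 rows in the series. Their median change was -0.02, against -0.01 over all rows tested. The row of Onecut3 (chr10:80492835-80495835) had 545, 617, 608, 567 and 575 CPM in WT and 496, 488, 371 and 456 CPM in DKO. It fell by 0.37 ± 0.10 (SE) on the log2 scale (edgeR adjusted p = 0.0338), with no overlap between the groups. A row of Cux2 (chr5:122048851-122051851) had 38.9, 30.2, 31.8, 14.3 and 27.7 CPM in WT and 14.1, 17.7, 12.9 and 16.7 CPM in DKO. WT replicate 4 lay among the DKO values, and the change was -0.87 ± 0.23 (SE; edgeR adjusted p = 0.0372).

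Both calls depended on which libraries entered. That of Onecut3 ended when WT replicate 2 (-0.34), WT replicate 3 (-0.35), WT replicate 5 (-0.37), DKO replicate 2 (-0.40), DKO replicate 3 (-0.28) or DKO replicate 4 (-0.37) was left out. It passed in neither library set (-0.26 and -0.45). That of Cux2 held only without WT replicate 4 and ended without any other library (-0.94 to -0.72), and it passed in neither set (-1.10 and -0.50). DESeq2 called 0 member rows. At Pou4f2 (chr8:78435645-78438645) the row had 405, 434, 385, 418 and 415 CPM in WT and 375, 375, 317 and 377 CPM in DKO. Its groups did not overlap, but the change of -0.19 ± 0.10 (SE) did not pass (edgeR adjusted p = 0.501). Irx1 (chr13:71962723-71965723) had 276, 290, 253, 206 and 219 CPM in WT and 239, 239, 167 and 210 CPM in DKO, with overlapping groups and a change of -0.22 ± 0.11 (SE; edgeR adjusted p = 0.500). A row of Satb1 (chr17:51811680-51814680) had 35.1, 46.7, 46.4, 23.1 and 25.4 CPM in WT and 42.2, 47.5, 38.1 and 41.7 CPM in DKO, at 0.32 ± 0.19 (SE; edgeR adjusted p = 0.585). Here the WT libraries spanned the whole DKO range except its top.

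The best covered rows of the other groups overlapped between the genotypes. Six5 (chr7:19092594-19095594) had 68.2, 104.5, 72.1, 74.9 and 87.9 CPM in WT and 101, 124, 98.9 and 56.7 CPM in DKO, at 0.22. Pknox2 (chr9:37082309-37085309) had 27.3, 9.62, 19.5, 30.3 and 22.4 CPM in WT and 35.2, 26.5, 25.1 and 29.2 CPM in DKO, at 0.34. Another row of Cux2 (chr5:121923921-121926921), at another start site, had 61.4, 49.5, 56.2, 51.8 and 40.1 CPM in WT and 55.2, 68.5, 57.1 and 65.8 CPM in DKO, at 0.26. None of these 3 passed (edgeR adjusted p = 0.649, 0.616 and 0.614), and the sign at Cux2 was opposite to that of its other row.

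Further genes of these families and the EYA, DACH and SOBP cofactors of sine oculis proteins were read from the promoter rows, 1 row per gene. Of 27 such genes 16 could be tested and none passed (edgeR), with 3 at an unadjusted p under 0.05. The median change was 0.14, and 0.08 over all 20 rows of these genes tested. Its sign depended on the libraries, with -0.06 over 18 rows in those without Old or New. DESeq2 also called 0. The highest levels were those of the cofactor Dach1, with 139 ± 20.2 CPM (SD, n = 5) in WT and 124 ± 19.4 (SD, n = 4) in DKO, and of the phosphatase and cofactor Eya2, with 128 ± 19.7 (SD, n = 5) and 127.5 ± 13.2 (SD, n = 4). Their changes were -0.17 and -0.002. The cofactor Sobp stood at -0.20 and the TALE gene Mkx, a tendon factor, at 0.29. Pou5f1 (OCT4), the POU factor of pluripotent cells, had 4.94 ± 2.93 CPM (SD, n = 5) in WT and 4.55 ± 1.05 (SD, n = 4) in DKO and was too low to test.

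The 10 genes expressed in ESCs had a median of 6.30 CPM per gene in WT, and 4 of them held enough reads to test. Nanog, Zfp42 and Sall4 had only 76, 14 and 172 bases free of other rows, and Nanog was at 0 in both groups, so their low values say little of the mark. The summed level of the 10 was 106 to 130.5 CPM over WT libraries and 126 to 148 CPM over DKO libraries. Among genes that mark other cell types the WT median per gene was 72.2 CPM over 6 trophoblast genes, 19.5 over 5 primitive endoderm genes and 6.66 over 8 fibroblast genes, the last near that of the ESC genes. Of the fibroblast genes, Col3a1, Fap, Pdgfrb and Prrx1 had only 135, 224, 50 and 38 bases free of other rows. The low fibroblast median therefore also says little of the mark. Pdgfra and Eomes likewise had only 14 and 132 such bases. Trophoblast genes summed to 635.5 to 757 CPM in WT and 595 to 655 CPM in DKO, primitive endoderm genes to 529 to 634 and 470 to 570 CPM, and fibroblast genes to 358 to 433 and 370 to 434 CPM. Twist1 at 228 CPM and Col1a1 at 99.8 CPM in WT made up most of the fibroblast sum. None of the 18 marker rows tested passed. The promoter signal of a marker says little about the number of such cells, and its part in the values above was not tested.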

How the data were processed

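The authors deposited raw, unscaled counts. Per the file headers, featureCounts 2.0.3 counted reads over promoter rows, unstranded, and dropped a read that met several rows. Each row starts 2000 bp before and ends 1000 bp after a start site. The submitters' processing notes name Bowtie2, MACS2, bedtools, Subread and featureCounts, with no role, and build mm10. The way regions were called is not given in the sources.

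All rows were fitted and members read from the fit. Left out were 37 rows of chromosome M and 1 row over 1 Mb long. Among the 77489 rows kept, 12386 lay wholly under other rows. Counts were tested with edgeR 4.0.16 (R 4.3.3) by the two-sided quasi-likelihood F test, with filterByExpr (minimum count 10, total 15), TMM scaling, Benjamini-Hochberg adjustment over all rows tested and calls under 0.05. Each fit used only the libraries of the groups compared, or all 13 for the interaction. The SE is the log2 fold change divided by the root of F. DESeq2 1.42.0, other scalings, filters, library sets and each library left out were alternatives. The code was tested on simulated data. Python 3.11.15 and pandas 2.3.3 made the summaries.

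Values in every library are given for members that passed, the 5 of smallest p, the best covered row and the widest region of each group. Some further genes are not reported here. The members and lists were chosen with earlier results of these data known. The labels do not state separate cultures, and p-values then reflect only how these libraries vary, which can be technical.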

Additional observations from a re-analysis of the deposited data

Results flagged for a closer look

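In 8 of 130 groups of member values looked at, 1 library lay far from the others of its genotype relative to the group's range (Dixon's test at 95%). Chance alone flags about 1 in 20 such groups. Among regions, Six2 in WT had a highest value of 631 CPM in replicate 1, against 586 CPM in the next library. A Pou2f2 region (chr7:25131152-25133150) had a highest WT value of 30 CPM in replicate 3, with the next at 23.6. At Cux2, 1 region (chr5:121923805-121926507) had a lowest DKO value of 23.6 CPM in replicate 1, the library of clone 4, and another (chr5:122051281-122054058) a lowest WT value of 21.8 CPM in replicate 4. Without WT replicate 1 the Six2 region still fell.

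Among promoter rows, Pou4f2 had a lowest DKO value of 317 CPM in replicate 3, where the others lay between 375 and 377 CPM. A row of Irx6 had a lowest WT value of 25.5 CPM in replicate 4, a row of Satb1 a highest DKO value of 37.2 CPM in replicate 1 and a row of Pou4f3 a highest WT value of 19.5 CPM in replicate 3.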

How the results depend on the processing

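The count of 16 fallen regions was 10 to 17 when each library was left out in turn, the lowest without DKO replicate 3 and the highest without DKO replicate 1. It was 5 in the libraries without Old or New and 6 in those with them, where fewer libraries entered, and 4 falls with 1 rise (5 calls) with the offset for level. DESeq2 gave 13, library totals 12 and the replicate block 15, where Cux2 lost its call. No other region call changed with the block. The 16 values, at regions chosen for their fall over the same libraries, were negative under every alternative run. Over all regions the split of 872 rises and 758 falls was 244 and 292 with DESeq2, 425 and 538 with the replicate block, 1418 and 460 with library totals, 912 and 445 with the offset for level and 534 and 857 with scaling off chromosomes 6 and 11. The replicate numbers do not pair the libraries: same-numbered WT and DKO libraries had correlations of their deviations over regions of 0.041, -0.038, 0.035 and 0.079, and only DKO replicate 1 correlated best with its own number. By the words in the labels, WT replicate 4 and DKO replicate 3 (Old) had 0.10 and WT replicate 5 and DKO replicate 4 (New) 0.186, each the best match of that DKO library. With a term for the library set 16 regions fell.

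The 2 fallen promoter rows became 0 with DESeq2, with no filter, with the replicate block, within either library set and with WT replicates 1, 4 and 5 alone, and 1 with a mean count of 50 or more or with the offset for level. Leaving out 1 library gave 0 to 2, and 16 to 80 falls with 33 to 191 rises over all rows. Counts for the further genes, for total H3 and for the interaction were 0 under every alternative run. The cause of these changes was not tested. The depth of the H3 libraries limits what could be seen there.

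None of the values below passed a test in all 9 libraries. Rows and regions are numbered as deposited or by position. With DESeq2 the opposite sign was found at Satb1 row 3 (0.0019) and Eya2 row 1 (0.0011). With RLE scaling the opposite sign was found at Eya2 row 1 (0.0017). With WT replicates 1, 4 and 5 alone the opposite sign was found at Pou2f2 region 1 (0.070), Pou2f3 region 2 (0.031), Pou3f1 row 1 (0.026), Irx6 row 2 (0.011), Pou4f1 row 1 (0.088) and Pou1f1 row 4 (0.0082). With the offset for level the opposite sign was found at Six6 region (0.0092), Irx4 region (0.11), Irx6 region (0.068), Pknox2 region 1 (0.0093), Satb1 region 3 (0.044), Irx6 row 1 (-0.037), Onecut1 row 1 (0.019), Pou4f1 row 1 (0.025), Satb1 row 6 (-0.039) and Eya2 row 1 (0.026). With a term for the library set the opposite sign was found at Pou4f1 row 1 (0.0040), Satb1 row 3 (0.0095) and Eya2 row 1 (0.012). With library totals the opposite sign was found at Pou2f2 region 1 (0.034), Pknox2 region 1 (0.0081), Satb1 region 3 (0.039), Pou4f1 row 1 (0.0025), Satb1 row 3 (0.017) and Eya2 row 1 (0.023). With no filter the opposite sign was found at Satb1 row 3 (0.0099) and Eya2 row 1 (0.013). With the replicate block the opposite sign was found at Pou2f2 region 2 (-0.050) and Satb1 row 3 (0.11). In a fit to rows over a region the opposite sign was found at Irx6 row 1 (-0.013) and Satb1 row 6 (-0.017). With scaling off chromosomes 6 and 11 the opposite sign was found at Pou2f2 region 2 (-0.014). With a mean count of 50 or more the opposite sign was found at Satb1 region 3 (8.0e-04) and Eya2 row 1 (0.0052). In the libraries with Old or New the opposite sign was found at Irx4 region (0.0034), Pou2f2 region 1 (0.051), Pou2f3 region 2 (0.12), Pknox2 region 2 (-0.028), Satb1 region 3 (0.021), Six5 row 1 (-0.038), Irx6 row 1 (-0.095), Satb1 row 3 (0.073), Eya2 row 1 (0.14) and Sobp row 1 (0.13). In the libraries without Old or New the opposite sign was found at Pou2f2 region 2 (-0.042), Meis1 region (-0.060), Pou3f2 row 1 (0.012), Pou3f1 row 1 (0.050), Irx3 row 2 (-0.094), Irx5 row 2 (0.17), Irx6 row 2 (0.10), Pou2f3 row 2 (-0.058), Meis1 row 4 (-0.27), Pou4f1 row 1 (0.073), Satb1 row 6 (-0.23) and Pou4f3 row 2 (0.018). Leaving out 1 library changed the sign at Six5 region 1 (-0.066 to 0.12), Pou2f2 region 1 (-0.095 to 0.059), Pou2f2 region 2 (-0.044 to 0.074), Satb1 region 3 (-0.072 to 0.011), Meis2 row 4 (-0.26 to 0.022), Pou3f1 row 1 (-0.18 to 0.056), Irx6 row 1 (-0.12 to 0.19), Irx6 row 2 (-0.22 to 0.091), Meis1 row 4 (-0.26 to 0.24), Irx2 row 1 (-0.37 to 0.049), Pou4f1 row 1 (-0.12 to 0.073), Satb1 row 3 (-0.15 to 0.10), Satb1 row 6 (-0.15 to 0.14) and Eya2 row 1 (-0.049 to 0.087).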
